A study of Mus musculus with 2 samples.

Results

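Spots scored for the granule layer of the dentate gyrus were described, 120 Visium capture spots with 60 in each of 2 coronal mouse brain sections. Not all of them carry the other genes of the layer, and 31 in mouse 1 and 5 in mouse 2 adjoined no other. In each section, spots with at least 500 unique molecular identifiers (UMIs, each standing for 1 captured transcript) were scored. The score was the mean over Prox1, C1ql2 and Dsp of the natural log of 1 plus the UMIs per 10000 of the spot. The members were chosen by these measured values: the 60 highest of 3712 spots were taken in mouse 1 and the 60 highest of 3548 in mouse 2. A spot covers a small area that can hold several cells of different types. The score at rank 60 was 0.509 in mouse 1 and 0.623 in mouse 2, and the next spot had 0.508 and 0.621.

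Both sections came from mice that expressed hM3Dq and received CNO, and no untreated section was analysed here. hM3Dq is an engineered receptor that couples to Gq and excites neurons when its drug CNO binds. The genotype label was WT:C57BL/6J control for mouse 1 and WT:CRISPR-Cas9 edited isogenic control for mouse 2, so genotype label and mouse cannot be told apart. The fresh frozen sections were 10 µm thick and lay 1.9 mm posterior to bregma, and the injection lay at 4.6 mm posterior. The labels used here give no age, and no promoter for the receptor. They do not say which side of the image was injected.

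Dentate granule cells are the small, densely packed excitatory neurons that receive the main input of the hippocampus from the entorhinal cortex. Their axons, the mossy fibres, contact CA3 pyramidal cells and hilar mossy cells. Prox1 is a homeobox transcription factor that sets granule cell identity, C1ql2 is a secreted C1q-like protein of mossy fibre synapses, and Dsp encodes the junction protein desmoplakin.

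The promoters of the 3 scoring genes, which chose the spots, and of C1ql3, which is followed in the results below, are shown. C1ql3 encodes a second secreted C1q-like synaptic protein and was not used for scoring. The windows run from 250 bases before to 50 bases after the start and come from RefSeq (GRCm38.p6). Capitals mark CAGATG on either strand, the E-box letters that NeuroD factors bind. These letters occurred in 5635 of 32851 promoter windows of 300 bases (17.15%) and in 1 of these 4, that of Prox1.
C1ql2 (chr1:120340332-120340631, plus strand): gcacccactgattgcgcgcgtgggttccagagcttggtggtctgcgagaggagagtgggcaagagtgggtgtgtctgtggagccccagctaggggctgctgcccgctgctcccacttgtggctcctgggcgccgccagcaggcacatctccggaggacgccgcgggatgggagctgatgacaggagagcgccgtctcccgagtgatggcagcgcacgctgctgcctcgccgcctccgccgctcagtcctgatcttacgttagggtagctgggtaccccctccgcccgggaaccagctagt
Prox1 (chr1:190170778-190171077, minus strand): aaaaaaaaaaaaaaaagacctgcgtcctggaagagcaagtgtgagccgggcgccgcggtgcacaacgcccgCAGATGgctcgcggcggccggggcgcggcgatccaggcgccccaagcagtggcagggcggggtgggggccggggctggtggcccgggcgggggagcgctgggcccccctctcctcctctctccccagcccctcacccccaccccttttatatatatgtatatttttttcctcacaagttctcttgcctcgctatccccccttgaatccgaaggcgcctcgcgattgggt
Dsp (chr13:38151044-38151343, plus strand): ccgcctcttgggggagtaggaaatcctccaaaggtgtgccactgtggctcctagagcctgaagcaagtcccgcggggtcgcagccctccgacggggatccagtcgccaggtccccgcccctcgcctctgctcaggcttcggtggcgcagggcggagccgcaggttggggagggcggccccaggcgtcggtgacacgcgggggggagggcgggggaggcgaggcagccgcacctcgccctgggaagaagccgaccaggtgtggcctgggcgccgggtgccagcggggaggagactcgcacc
C1ql3 (chr2:13010815-13011114, minus strand): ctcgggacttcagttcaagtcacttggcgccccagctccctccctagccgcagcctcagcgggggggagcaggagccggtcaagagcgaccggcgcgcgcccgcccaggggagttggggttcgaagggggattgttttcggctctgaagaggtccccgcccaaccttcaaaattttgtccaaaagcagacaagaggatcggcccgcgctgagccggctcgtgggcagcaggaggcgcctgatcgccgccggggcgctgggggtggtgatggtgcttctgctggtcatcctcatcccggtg

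The label of the layer matched the spots of mouse 2 more closely than those of mouse 1. In mouse 2, 55 of 60 spots adjoined another member on the array, and they formed bands on both sides of the midline below the CA1-scored spots. In mouse 1 only 29 of 60 adjoined another member. The other 31 lay singly, at a median of 19 array steps from the nearest adjoining member, and 6 of them lay within 3 steps. Of the 31 isolated spots of mouse 1, 15 held a UMI of only 1 of the 3 scoring genes and none held all 3. Of its 29 adjoining spots 8 held only 1 and 5 held all 3. All 3 genes were found in 5 members of mouse 1 and in 40 of mouse 2. They were found in 0 of 3652 other spots of mouse 1 and in 4 of 3488 of mouse 2. The members hold more of these genes by choice, so these counts are no check of the label.

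Genes that the score did not use separated the isolated from the adjoining spots of mouse 1. C1ql3 stood at 290 CPM (UMIs of the gene per 1000000 UMIs of the spot set) in the adjoining spots, at 23.8 in the isolated spots and at 24.9 in all other spots. The myelin protein gene Mbp stood at 1083 CPM in the adjoining spots, 6754 in the isolated spots and 4858 in the others. Summed over 18 granule layer genes outside the score, the adjoining spots reached 1368 CPM, the isolated spots 538 and the others 425. This list, like the others, was chosen with earlier results of these data known. The thalamus list summed to 187 CPM in the adjoining spots, 1234 in the isolated spots and 1322 in the others. Prox1 was higher in the isolated spots, at 195 CPM against 102 in the adjoining ones. In mouse 2 the 5 isolated spots had C1ql3 at 17.5 CPM, from 1 UMI. They had 560 CPM over the 18 granule layer genes, against 1942 in the adjoining spots. The isolated spots of both mice are therefore called by their score and not by the name of the layer. Values are for all 60 members unless stated otherwise, and many are also given without the isolated spots of both mice.

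**Figure D1:**
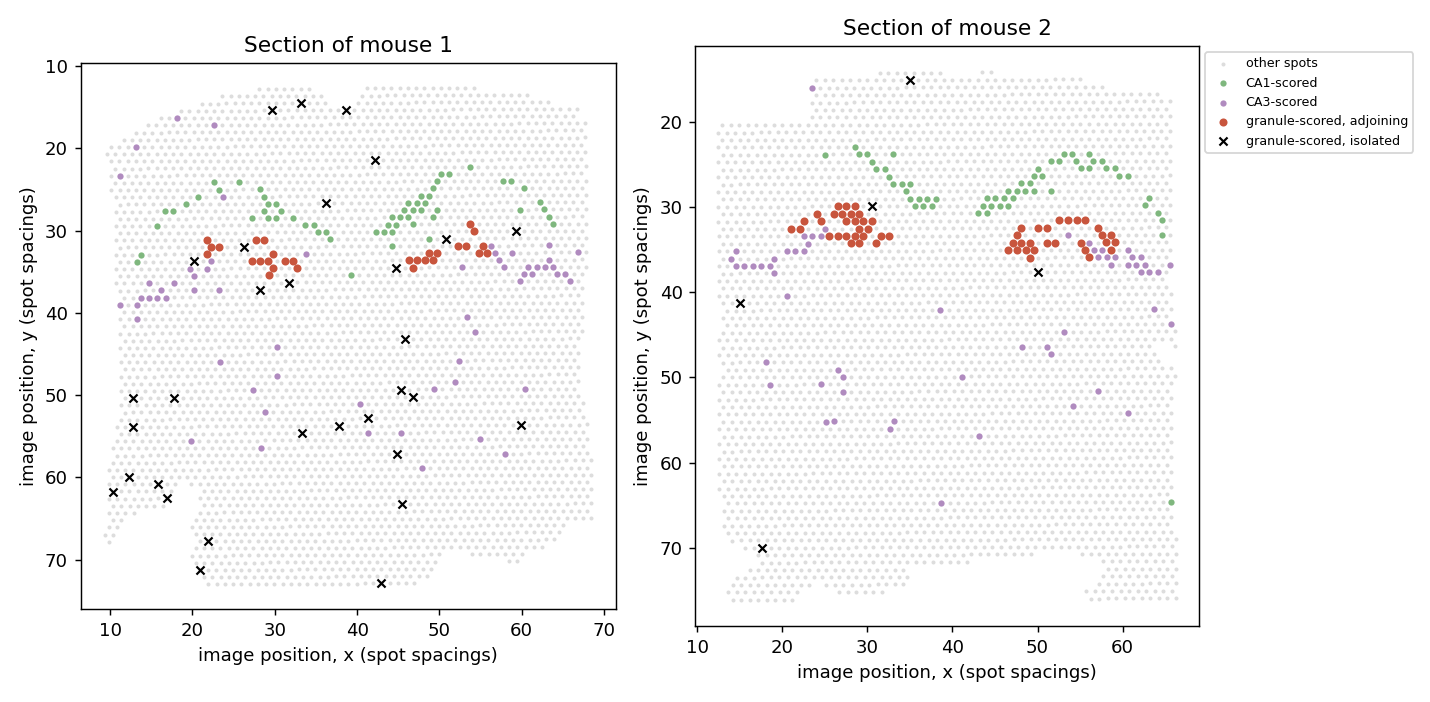
Position of the spots in the 2 sections, in units of the spot spacing on both axes. Filled red points are members that adjoin another member (29 in mouse 1, 55 in mouse 2), crosses are isolated members (31 and 5), green and purple points are the CA1-scored and CA3-scored spots, and grey points are all other spots.

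The members held 434358 UMIs in mouse 1 and 1114390 in mouse 2, with medians of 7391 and 18527.5 per spot against 7565 and 14609.5 in the other spots. Mitochondrial genes took 10.1% and 10.3% of their UMIs, against 13.4% and 15.5% in the other spots. The sections shared 3369 spot barcodes, which are those of the array design, and 11 of these were members in both. With 1 section per mouse, intervals within a section cover counting error only. In bulk sums of spots, fewer cells of a type and less RNA per cell cannot be told apart.

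The contrast with all other spots is a description, because it was made by the score. Of the 18 granule layer genes outside the score 2 were measured and 1 was higher by the rule given next, and of 5 measured thalamus genes 2 were lower. Of 1450 genes with at least 50 UMIs in, or expected in, the members of each section, 22 (1.52%) were at least 2-fold higher in both and 10 (0.69%) at least 2-fold lower. Without the isolated spots 737 genes were measured, of which 29 (3.93%) were higher and 44 (5.97%) lower.

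The scoring genes come first. C1ql2 stood at 221 CPM in mouse 1 and 307 in mouse 2, against 6.02 and 9.56 in the other spots. Prox1 stood at 147 and 153 CPM against 25.3 and 33.1. Dsp stood at 39.1 and 79.9 CPM against 0.86 and 1.70. All 3 were highest in the members by choice, and Prox1 had the highest level elsewhere.

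Among genes the score did not use, C1ql3 stood at 161 and 272 CPM against 24.9 and 25.1, ratios of 6.46 (95% interval 4.98 to 8.26) and 10.8 (9.52 to 12.3). Rasl10a, a Ras-like small GTPase gene, stood at 163 and 273 CPM against 18.7 and 21.3. Kctd4, which encodes a protein with a potassium channel tetramerisation domain, stood at 134 and 227 CPM against 19.7 and 22.8. Each was higher in the members of both sections, and the ratio was larger in mouse 2. Without the isolated spots the sections drew level: the ratios were 11.6 and 11.4 for C1ql3, 15.5 and 13.5 for Rasl10a, and 11.1 and 10.5 for Kctd4.

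Other neuronal genes had smaller ratios. Nrgn, the postsynaptic calmodulin-binding protein neurogranin, was 2.85 and 4.11 times as high as in the other spots. Ppp1r1a, an inhibitor of protein phosphatase 1, was 2.93 and 4.42 times as high. The transcription factor Zbtb20, needed for hippocampal identity, was 2.25 and 3.18 times as high. Calb1, the calcium buffer calbindin of mature granule cells, was 1.58 and 1.99 times as high and did not reach 2-fold. Of 10 listed neuropil genes, 6 were measured and 2 were called higher, the dendritic gene Ddn and the inositol trisphosphate kinase Itpka.

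The lowest ratios of all measured genes were those of Pmch and Hcrt. Pmch, which encodes melanin-concentrating hormone, was at 0.0705 and 0.012 of the level elsewhere, and Hcrt, which encodes orexin, at 0.0764 and 0.018. Prkcd, a protein kinase C abundant in the thalamus, was at 0.331 and 0.115. Mbp was at 0.787 in mouse 1 and 0.228 in mouse 2, and at 0.223 and 0.203 without the isolated spots. The 8 listed myelin genes thus gave a different count in each setting, with 0 called lower among all members and 6 of 6 measured without the isolated spots.

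Few activity-regulated genes had enough UMIs to be measured by the rule given above, and none was called. Of 20 listed immediate early genes 1 was measured, the AP-1 subunit gene Jund, with log2 ratios of -0.365 and -0.102. Of 16 listed late activity-regulated genes 4 were measured, with 0 higher and 0 lower. Fos, Npas4, Jun and Egr1 had too few UMIs for that rule and were chosen after their values were seen. The 20 listed immediate early genes summed to 424 CPM against 437 in the other spots of mouse 1 and to 669 against 473 in mouse 2. Fos, an AP-1 subunit, had 2 UMIs in mouse 1 and 5 in mouse 2, ratios of 0.377 (0.0455 to 1.37) and 0.357 (0.115 to 0.836). The interval of mouse 1 includes equal levels. Npas4 had 1 UMI in each section. Jun, another AP-1 subunit, stood at 78.3 and 157 CPM against 36.5 and 44.0, ratios of 2.15 (1.48 to 3.02) and 3.57 (3.05 to 4.17). Egr1 was at 1.01 and 0.803 of the level elsewhere.

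**Figure D2:**
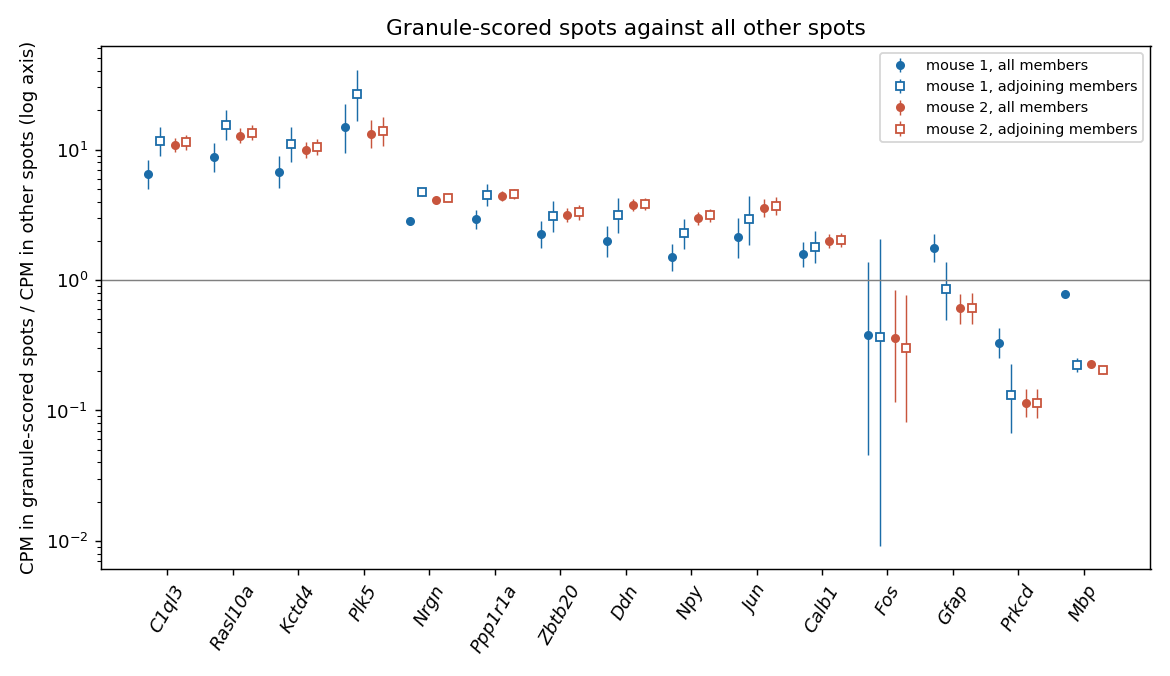
Ratio of CPM in the members to CPM in all other spots, on a log axis, for 15 genes in both mice. Filled circles are all members, open squares adjoining members only, and bars are 95% counting intervals; for C1ql3 the mouse 1 ratio is 6.46 with all members and 11.6 with adjoining members, beside 10.8 and 11.4 in mouse 2.

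The levels changed within 1 to 2 array steps of the adjoining members. C1ql3 fell from 290 and 286 CPM in these members to 179 and 137 at 1 step and 57.8 and 44.8 at 2 steps. The membrane trafficking gene Stxbp6 went from 129 and 195 CPM to 46.7 and 85.1 at 1 step. Jun went from 107 and 162 CPM to 54.8 and 85.1. Penk, which encodes the opioid precursor proenkephalin, went from 49.0 and 66.2 CPM to 38.6 and 41.6 and then to 22.7 and 21.0. All of these were highest in the adjoining members in both sections. For Penk in mouse 1 this rested on 11 UMIs in these members and 19 at 1 step. Measured from all members, Penk stood at 29.9 and 63.7 CPM in the members and 38.2 and 43.0 at 1 step, so mouse 1 went the other way.

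Other genes peaked outside the adjoining members. Gfap, the intermediate filament of astrocytes, stood at 75.8 and 53.0 CPM in the adjoining members and at 285 and 241 at 2 steps. Neurod6, a transcription factor of pyramidal neurons, stood at 44.6 and 66.2 CPM and at 110 and 180 at 1 step. Ddn was 201 and 354 CPM in the members and 293 and 372 at 2 steps. Mbp rose outward at each step, from 1083 and 1003 CPM to 5102 and 5281 at 5 or more steps. These profiles are descriptions with no test.

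**Figure D3:**
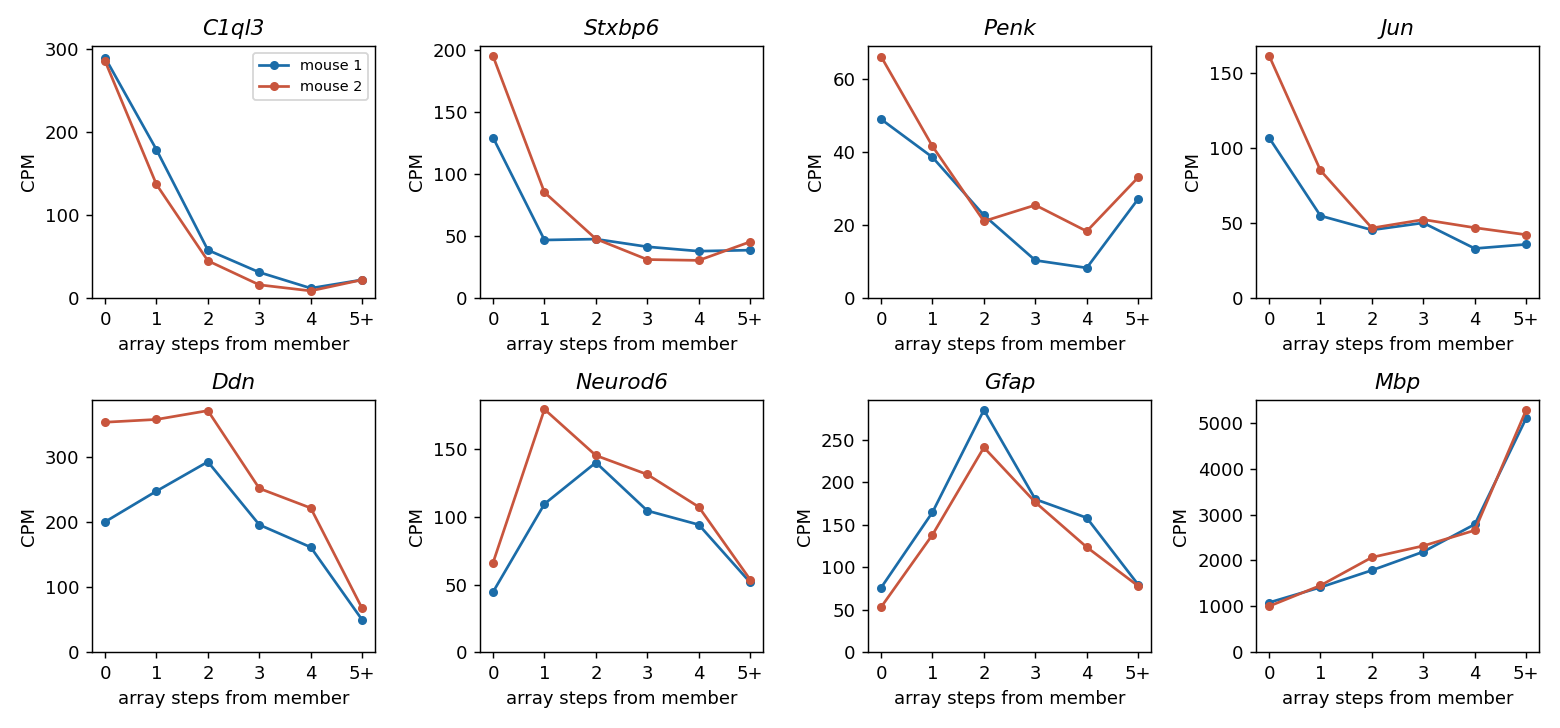
CPM of 8 genes in adjoining members (0) and in spots at 1, 2, 3, 4, and 5 or more array steps from them, for both mice. C1ql3, Stxbp6, Penk and Jun are highest at 0, Gfap is highest at 2 steps (285 and 241 CPM), and Mbp rises outward.

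The members were next compared with the pyramidal layers of the same sections. The 60 spots with the highest score for Fibcd1, Spink8 and Wfs1 were taken as CA1-scored spots. The 60 highest for Bok, Iyd and Nectin3 were taken as CA3-scored spots. The 6 genes that chose the spots of a comparison were not tested in it. Leaving them out does not undo the choice, which favours higher granule layer genes and lower CA1 or CA3 genes in the members. The directions of these layer genes are therefore no check of the label, and the adjusted p-values do not allow for the choice. CA1-scored spots were mostly contiguous, with 48 and 55 of 60 adjoining another. Of the CA3-scored spots only 25 and 41 did, and the rest lay mostly in the lower part of the section.

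Members were compared with CA1-scored spots first. Of 8781 genes tested with edgeR, 529 (6.02%) were higher in the members and 505 (5.75%) lower at an adjusted p under 0.05. DESeq2 called 39 and 69 of the 7418 genes to which it gave an adjusted p. Of the granule layer genes outside the score, 13 of 15 tested were higher and 0 lower, with a median log2 difference of 2.85 against 0.01 over all genes. All 5 tested genes of the CA1 list were lower, with a median of -3.28.

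Kctd4 stood at 134 and 227 CPM in the members and 1.81 and 8.83 in CA1-scored spots, a log2 difference of 4.97 ± 0.33 (SE, n = 2 mice, adjusted p = 8.47e-13, edgeR). Trpc6, a calcium-permeable cation channel, stood at 23.0 and 51.1 CPM against 1.81 and 1.61 (log2 difference 4.60 ± 0.61). Plk5, a polo-like kinase family member, stood at 62.2 and 73.6 CPM against 1.81 and 4.82 (4.21 ± 0.43). Lrrtm4, a postsynaptic adhesion protein, was also higher (3.78 ± 0.48). These genes were picked for large differences, so the gap between the layers follows in part from the picking. The CA1 levels of 1.81 CPM rest on few UMIs, out of 552742 in the CA1-scored spots of mouse 1.

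Among the genes lower in the members, Neurod6 stood at 29.9 and 64.6 CPM against 508 and 571 in CA1-scored spots (log2 difference -3.35 ± 0.19). The POU-domain transcription factor Pou3f1 was lower by the same test (-3.77 ± 0.26), as was Hpca, the calcium sensor hippocalcin (-2.16 ± 0.13). The long RNA 4921539H07Rik had no UMI in the members of either section and 34.4 and 23.3 CPM in CA1-scored spots, at least 13.8-fold lower against a floor of 3 counts over both sections.

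Immediate early genes went both ways. Of 20 listed, 12 were tested, 2 were higher and 6 lower, and without the isolated spots 2 and 5 of 13. Jun stood at 78.3 and 157 CPM in the members and 12.7 and 13.6 in CA1-scored spots (log2 difference 3.32 ± 0.32, adjusted p = 3.01e-09, edgeR). Btg2, a gene that restrains cell division, stood at 13.8 and 30.5 CPM against 5.43 and 1.61 (3.13 ± 0.64). Both genes are also on the list of granule layer genes. Nr4a1, an orphan nuclear receptor, stood at 16.1 and 12.6 CPM against 57.9 and 82.7 (-2.33 ± 0.36). Egr1, a zinc finger factor, stood at 80.6 and 78.1 CPM against 228 and 296 (-1.67 ± 0.20). Junb was lower at -1.42 ± 0.46 and missed the threshold without the isolated spots (adjusted p = 0.0624, edgeR).

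Of 17 tested genes of Gq and calcium signalling, 3 were higher and 10 lower, with a median of -0.83, and without the isolated spots 1 was higher and 8 lower. The protein kinase C gene Prkcb stood at 175 and 163 CPM against 687 and 715 (-1.97 ± 0.14). Among 11 GABA-A receptor subunits, 2 were higher and 3 lower, and among the 9 tested without the isolated spots 1 and 2. Gabrd, the delta subunit of extrasynaptic receptors, stood at 41.4 and 54.7 CPM against 16.3 and 24.1 (1.31 ± 0.33). Gabra5 stood at 80.6 and 118 CPM against 291 and 312 (-1.49 ± 0.18). Of 10 ionotropic glutamate receptor subunits, 1 was higher, the kainate receptor subunit Grik2, and 6 were lower, among them Gria1 (-1.02 ± 0.15) and Grin2a (-1.15 ± 0.18). Without the isolated spots 2 were higher and 6 lower.

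Of 12 tested genes of peptides and secretory granules 2 were higher and 2 lower, with a median of -0.12. Pdyn, the precursor of dynorphin, stood at 18.4 and 41.3 CPM against 1.81 and 8.83 (2.44 ± 0.50). Npy, which encodes neuropeptide Y and is also made by interneurons, stood at 175 and 300 CPM against 148 and 141 (0.83 ± 0.19). Cck, which encodes cholecystokinin, was lower (-1.79 ± 0.09).

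Markers of other cell types and of the thalamus moved with this comparison, and their part in it was not tested. Of 10 astrocyte genes 5 were higher, and 0 without the isolated spots. Mbp was called higher in the members (0.73 ± 0.21), and so were 3 of 8 myelin genes in all. Its level was 3824 CPM against 1245 in mouse 1 but 1124 against 1422 in mouse 2, so the mice went opposite ways. Without the isolated spots edgeR called 491 (5.65%) genes higher and 465 (5.35%) lower in all, and 0 of 8 myelin genes either way, with Mbp at -0.24. Of the thalamus list 6 of 6 tested genes were higher among all members and 3 of 5 without the isolated spots, with Slc17a6, a vesicular glutamate transporter, at 2.53 and then 1.43. The granule layer list gave 16 of 16 higher without the isolated spots, which is no independent check of the label.

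Against CA3-scored spots the members were again higher in granule layer genes, a direction that the choice of the spots favoured. Of 8681 genes tested, 360 (4.15%) were higher and 273 (3.14%) lower. DESeq2 called 36 and 29, but gave an adjusted p to only 2453 genes. Without the isolated granule spots edgeR called 565 (6.52%) and 506 (5.84%). With isolated spots left out of both sets it called 440 and 415 of 7525 genes tested. Of 8 myelin genes 0 were lower among all members, 6 without the isolated granule spots (median -0.87) and 3 with isolated spots left out of both sets, and their part in the other differences was not tested. The CA1 and CA3 comparisons share the members' libraries, so their results are not independent.

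C1ql3 stood at 161 and 272 CPM in the members and 8.22 and 7.47 in CA3-scored spots, a log2 difference of 4.96 ± 0.33 (SE, n = 2 mice, adjusted p = 2.24e-07, edgeR). Fam163b stood at 36.8 and 231 CPM against 6.16 and 15.8 (3.73 ± 0.34). Its levels in the members differed more between the mice than those of C1ql3. Of 16 tested granule layer genes 12 were higher and 0 lower, with a median of 1.99 against 0.02 over all genes, and 13 of 16 were higher without the isolated granule spots.

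Bcl11b, a zinc finger transcription factor, stood at 53.0 and 142 CPM against 8.22 and 24.9 (2.60 ± 0.30). Penk stood at 29.9 and 63.7 CPM against 0 and 12.4 (2.73 ± 0.47), and Pdyn at 18.4 and 41.3 against 4.11 and 2.49 (3.50 ± 0.58). Slc30a3, the zinc transporter of synaptic vesicles, was higher by 2.03 ± 0.33. Of 20 mossy fibre and presynaptic genes 2 were higher and 8 lower, with a median of -0.59, and without the isolated granule spots 4 were higher and 8 lower. Chgb, a secretory granule protein, stood at 246 and 358 CPM against 1050 and 1052 (-1.72 ± 0.15).

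Of 12 immediate early genes, Jun (1.64 ± 0.27) and Btg2 (1.83 ± 0.52) were higher and Nr4a3 was lower (-1.70 ± 0.31). Egr1 gave 0.35 ± 0.27 and did not pass the test (adjusted p = 0.548, edgeR). Whether the Egr1 difference from CA1 and that from CA3 differ was not tested. The immunoglobulin genes Igkc and Ighm were higher at 2.28 ± 0.42 and 2.52 ± 0.42. Thalamic genes stood high in the CA3-scored spots, with Prkcd at 378 and 633 CPM against 136 and 61.02 in the members, and 6 of 7 of that list were lower. Their part in the other differences was not tested.

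**Figure D4:**
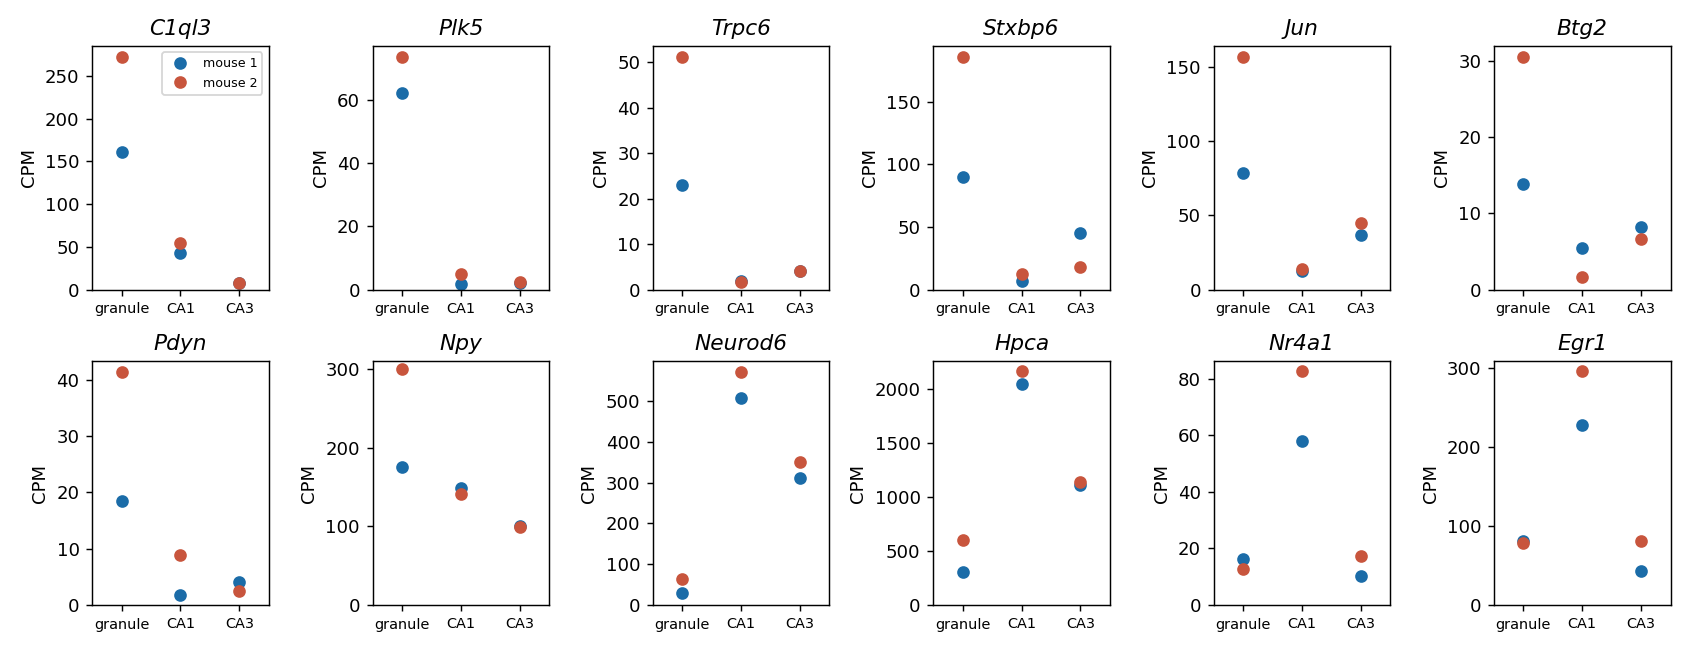
CPM of 12 genes in the members, CA1-scored and CA3-scored spots, with 1 point for each mouse. C1ql3, Plk5, Trpc6, Jun, Btg2 and Pdyn are highest in the members of both mice, and Neurod6, Hpca, Nr4a1 and Egr1 are highest in CA1-scored spots.

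The members of each side were divided along their long axis into a blade nearer the CA1-scored spots and a blade farther from them, called upper and lower. The upper blade held 32 and 31 spots and the lower 28 and 29. None of 5974 tested genes (0.0%) was called by edgeR in either direction, none by DESeq2, and 172 had an unadjusted p under 0.05. Penk stood at 29.8 and 59.2 CPM in the upper and 30.1 and 68.9 in the lower blade (-0.16 ± 0.35). Egr1 stood at 76.6 and 87.9 CPM against 85.2 and 67.0 (0.22 ± 0.28).

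With the blades drawn again without the isolated spots 1 gene was called (0.019%), Npy, higher in the upper blade by 1.18 (adjusted p = 5.53e-05, edgeR). Its levels went opposite ways in the mice, with 244 CPM in the upper and 287 in the lower blade of mouse 1 and 477 and 159 in mouse 2. A single spot of mouse 2 held 60 Npy UMIs. With the main dividing line the same adjoining spots gave 254 and 279 CPM in mouse 1 and 350 and 275 in mouse 2. Npy was at 0.79 and not called once spots within 1 array step of the redrawn line were also left out. That setting had fewer spots and was chosen after seeing the data. The isolated spots of mouse 1 were part of the main comparison, so its blades also hold spots far from the layer.

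Members on the image left were compared with those on the image right, 32 against 28 in each mouse. Of 6024 tested genes 18 (0.299%) were higher on the left and 3 (0.0498%) lower. Igkc, the constant region of the immunoglobulin kappa chain, stood at 98.2 and 62.3 CPM on the left and 9.07 and 1.86 on the right, a log2 difference of 4.16 ± 0.64 (SE, n = 2 mice, adjusted p = 1.16e-07, edgeR). These levels rested on 21 and 36 UMIs on the left, spread over 13 and 15 spots, and on 2 and 1 UMIs on the right. In all other spots Igkc went the same way, and stood at 60.7 and 21.7 CPM on the left and 11.7 and 4.74 on the right. The other spots were not tested. The direction was the same with DESeq2 and without the mouse as a block, but neither called Igkc (adjusted p = 0.661 and 0.999). DESeq2 called 0 genes higher on the left and 1 lower, and edgeR without the block called 0 and 0.

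Ttr, the thyroid hormone carrier made by the choroid plexus, ran the other way, at 425 and 163 CPM on the left and 1842 and 832 on the right (-2.15 ± 0.13). Enpp2, also abundant in choroid plexus, was lower on the left (-1.01 ± 0.22). DESeq2 called Ttr but not Enpp2. In the other spots Ttr stood at 3073 and 1938 CPM on the left and 4062 and 3125 on the right. The heavy chain gene Ighm (-0.33 ± 0.44) and the complement gene C1qa (-0.12 ± 0.37) did not pass the test. None of 5 tested immediate early genes did, with Egr1 at -0.14 ± 0.32 and a range of log2 differences from -0.25 to 0.39.

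Myelin genes were among the other genes higher on the left. Mobp stood at 1187 and 202 CPM on the left and 349 and 138 on the right (1.29 ± 0.17), and 4 of 8 myelin genes were called. Without the isolated spots only Igkc (0.0194% of the genes tested) remained higher (4.60, adjusted p = 2.6e-07, edgeR) and 3 genes (0.0583%) were lower, 2 of them from the main comparison. Fewer spots and genes entered that fit, and Mobp was then at 0.43. The calls on the left also dropped with 40 or 80 members per section, to 5 and 4.

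**Figure D5:**
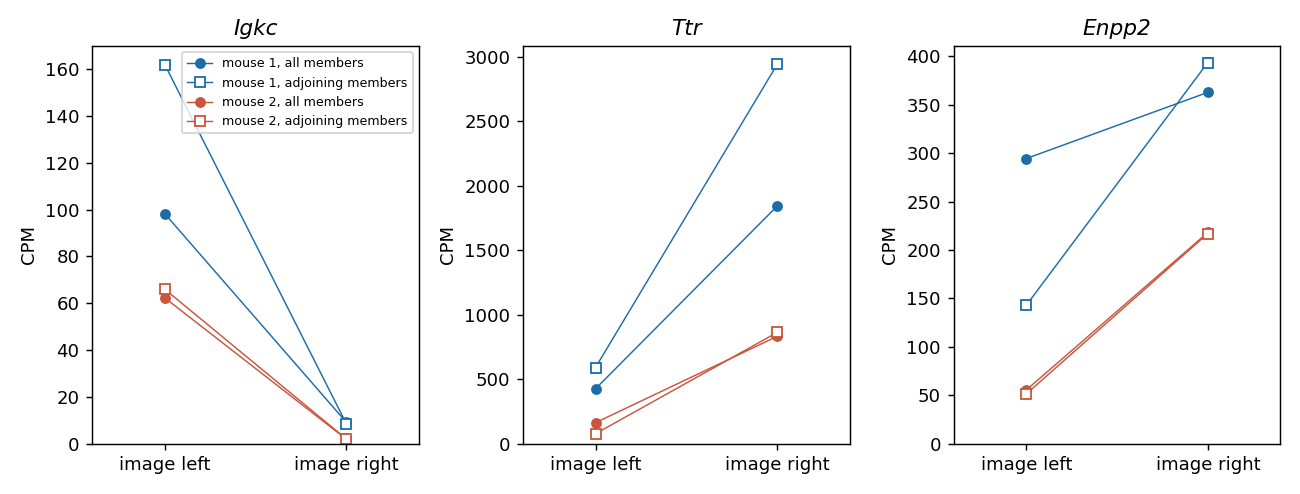
CPM of Igkc, Ttr and Enpp2 in members on the image left and right, for both mice. Filled circles are all members and open squares adjoining members; Igkc is higher on the left in both mice (98.2 and 62.3 CPM against 9.07 and 1.86) and Ttr on the right.

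Spot-to-spot variation among the members was described last. Over 580 genes with at least 100 UMIs in each section, the median residual variance, which is 1 for Poisson counts, was 1.51 and 1.44. The 10 genes with the highest values in both were Gm42418 (53.8 and 171), the mitochondrial genes mt-Co1, mt-Co2, mt-Co3 and mt-Atp6, the haemoglobin genes Hbb-bs (178 and 30.9) and Hba-a1, Ttr (27.6 and 33.1), Fth1 and Mbp. Among the adjoining members no haemoglobin gene, Fth1 or Mbp was among the 10, and Ttr had 25.0 and 24.9. Jun and Npy had fewer than 100 UMIs in mouse 1, so they stand outside the 580 genes. Their values were 1.203 and 0.934 for Jun and 2.85 and 9.41 for Npy. Across all spots the genes most like the score were Plk5, C1ql3, Kctd4, Lct and Tdo2, with correlations of 0.1525 to 0.1184 in mouse 1 and 0.209 to 0.2683 in mouse 2. These are weak correlations in sparse counts and are given as a description.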

How the data were processed

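Both sections were analysed from raw UMI counts per gene and spot that the authors deposited. Per the matrix header the counts came from Space Ranger 1.3.1, and the submitters' processing notes name mm10. Spots were summed per section and set, and scaled to CPM. Sets were compared with edgeR 4.0.16 (quasi-likelihood test, TMM, filterByExpr) on 4 libraries, with the mouse as a block because both sets of a section come from 1 animal, which left 1 residual degree of freedom. P-values were adjusted by Benjamini-Hochberg over all genes tested. In edgeR the spread of each gene was pooled with a spread shared over all genes. The shared part carried 30.5 (CA1), 15.9 (CA3) and 21.9 (blades) degrees of freedom. Between sides this number was infinite, so the shared spread replaced that of each gene. The edgeR p-values and SE thus rest mostly on the shared spread, and a gene can be called though the mice go opposite ways. DESeq2 1.42.0 was an alternative. The test was tried on simulated data.

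The members and 27 gene lists (329 of 330 genes found by symbol) were chosen with earlier results of these data known. Genes were named from the scoring genes, the extremes and up to 4 per list against the other spots, and from the 10 largest changes each way and up to 3 per list in each test. Not every gene so picked is printed. Genes outside this rule were chosen after their values were seen, among them Jun, Fos, Npas4 and Egr1 against the other spots, Egr1 and Junb between layers, Npy in the blades and the genes followed by distance. Some genes of the lists are not reported here.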

Additional observations from a re-analysis of the deposited data

How the results depend on the processing

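The counts of called genes and the values of single genes moved with the setting. The number of genes tested or measured moved too, so a change in count is not by itself a change in share. DESeq2 gave an adjusted p to 7418 genes against CA1-scored spots and to 2453 against CA3-scored spots. Against CA1-scored spots 529 higher and 505 lower became 39 and 69 with DESeq2, 151 and 187 with no replicate block, 337 and 333 with a score from Prox1 and C1ql2, and 328 and 292 with libraries thinned to the smallest total. Without TMM 295 were higher. Against CA3-scored spots 360 and 273 became 36 and 29 with DESeq2, 57 and 43 with no replicate block, 145 and 71 after thinning, and 565 and 506 without isolated granule spots. There 459 were lower with 80 spots, 418 without TMM, and 415 without the isolated spots of every set, a setting chosen after seeing the data. Between blades, 0 and 0 became 1 higher gene without isolated spots (Npy), and 1 (Ttr) without TMM, without the filter or after thinning. The blades gave 1 lower gene (Hcrt) with 80 spots or the Prox1 and C1ql2 score. Between sides, 18 higher became 5 with 40 spots, 4 with 80, 3 with the Prox1 and C1ql2 score, 1 without isolated spots, and 0 with DESeq2 or no replicate block. The 3 lower became 1 with that score or DESeq2, 5 without TMM and 0 with no replicate block. Against all other spots, 22 higher of 1450 measured became 14 of 1491 with the Prox1 and C1ql2 score, 89 at 1.5-fold and 6 at 3-fold. With 1 mouse left out the rule asked for 2-fold in 1 section only. It then gave 23 higher of 1452 measured without mouse 2 and 332 of 4306 without mouse 1. The 10 lower became 16 of 946 with 40 spots, 5 of 1988 with 80 spots and 5 of 1491 with that score. They became 44 of 737 without isolated spots, 50 at 1.5-fold and 3 at 3-fold. Without mouse 2 there were 13 lower of 1452, and without mouse 1 there were 287 of 4306. Single genes reversed in few cases. Against CA1-scored spots Cnp went to -0.12 and Mbp to -0.24 without isolated granule spots, Mbp to -0.059 without those of every set, and Cnp and Mbp to -0.062 and -0.34 without mouse 1 (1.34 and 1.62 without mouse 2). Against CA3-scored spots Pcp4 went to 0.79 without the isolated spots of every set. Between sides Cnp went to -0.27 without isolated spots and to -0.055 without mouse 1 (1.68 without mouse 2). Of the other values for single genes, 318 lost the call, and 187, all with 1 mouse left out, moved by more than 1 SE. The remaining 1442 stayed on the same side of the threshold or, with 1 mouse left out, within 1 SE of the main value. Leaving out a mouse left no residual degrees of freedom, so it gave values with no test. The cause of these changes was not tested, and leaving out the isolated spots also changed the number of spots and of genes tested. The lower depth of mouse 1, 434358 UMIs over its members, limits what can be said of genes with few UMIs.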
